A study of Mus musculus with 8 samples.

Results

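The genes described here code for the subunits of the interleukin-12 (IL-12) family (Il12a, Il12b, Il23a, Il27 and Ebi3), for interleukin-10 (Il10) and for the paired chains of its receptor (Il10ra and Il10rb). They were taken by gene name from the array files. The 8 names matched 8 probes, 1 per gene, of 55681 non-control probes under 34844 gene names. The study hybridised Cy3-labelled RNA of cultured mouse bone marrow cells to 8 Agilent 1-colour expression arrays, whose DNA probes here are 60 bases long. The samples form 4 groups of 2. All mice, on the B6.Cg background, carried the CAG-DsRed*MST transgene (line 1Nagy/J), which places the red fluorescent protein DsRed under the CAG promoter. Control macrophages were bone marrow cells grown for 7 days with macrophage colony-stimulating factor (M-CSF) and left in control medium. The IL-4 and LPS groups were such macrophages given interleukin-4 or lipopolysaccharide, the outer membrane component of Gram-negative bacteria, for 24 hours. Colony cells were bone marrow cells kept for 7 days in a haematopoietic stem cell medium on a layer of endothelial cells, so their substrate and medium both differ from those of the macrophages. The labels give neither the age of the mice nor the source of the endothelial layer, nor whether that layer was removed before RNA was extracted. They are silent on how the 2 samples of each group relate (separate animals, separate cultures or neither), so p-values measure only the spread between these samples, which may be technical.

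The IL-12 family cytokines are each built from an alpha chain and a beta chain that come from separate genes and are shared between family members. Il12a codes for the alpha chain and Il12b for the beta chain of IL-12, the macrophage and dendritic cell cytokine that drives T helper 1 responses, and the Il12b product also pairs with the Il23a product to form IL-23. The Il27 product pairs with the Ebi3 product to form IL-27, and Ebi3 is also a chain of IL-35 together with the Il12a product. IL-10 is a main cytokine by which macrophages restrain inflammation. It acts through the ligand-binding chain Il10ra and through Il10rb, a chain that the receptors of IL-22 and of the lambda interferons also use, and it is known to lower IL-12 production.

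The probes lie, on build mm9 as the array files give it, at chr3:68502346-68502405 on the plus strand (Il12a), chr11:44227121-44227180 plus (Il12b), chr10:127733766-127733825 minus (Il23a), chr7:133736137-133736196 minus (Il27), chr17:56096309-56096368 plus (Ebi3), chr1:132920943-132921002 plus (Il10), chr9:45062237-45062296 minus (Il10ra) and chr16:91425744-91425803 plus (Il10rb). No annotation of mm9 was used here, so whether a probe lies in an exon or an untranslated region is not stated. The Il12b and Il10 probes were printed on 10 spots of every array and the others on 1 spot.

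The upstream regions of genes that rose with LPS are shown because NF-kB, the transcription factor activated by LPS, is known to act on Il12b. Promoters for 3 of the 8 genes were in the RefSeq table used here (build GRCm38.p6, which differs from the build of the probes): Il12a with 2 starts, Il12b and Ebi3. Il23a, Il27, Il10, Il10ra and Il10rb are named only. The 250 bases before the start are printed 5′ to 3′ for Il12b (chr11:44399813-44400062, plus strand) and Ebi3 (chr17:55952373-55952622, plus strand), with matches to a searched motif in capitals.
Il12b: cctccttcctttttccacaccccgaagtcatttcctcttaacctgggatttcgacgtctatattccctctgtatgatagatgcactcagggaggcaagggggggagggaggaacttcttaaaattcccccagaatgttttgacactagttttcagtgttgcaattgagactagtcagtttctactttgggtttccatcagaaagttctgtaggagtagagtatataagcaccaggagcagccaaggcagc
Ebi3: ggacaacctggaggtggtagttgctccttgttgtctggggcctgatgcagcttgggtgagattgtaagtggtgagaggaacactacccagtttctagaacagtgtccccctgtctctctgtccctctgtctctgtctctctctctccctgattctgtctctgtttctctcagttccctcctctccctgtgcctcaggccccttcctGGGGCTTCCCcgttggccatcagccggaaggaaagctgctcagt
Both strands of the 4 windows (Il12a with both starts, Il12b and Ebi3) were searched for the consensus letters of NF-kB, for IRF (GAAA repeated after a gap of 2 bases), AP-1 (TGANTCA), C/EBP (TTGCNNAA) and STAT (TTCNNNGAA). The single match was to NF-kB, in the Ebi3 window, on the plus strand from 44 bases before the start. Of all 32851 promoters in the table, cut to the same length, 7.25% held the NF-kB letters, 2.98% the IRF letters, 6.75% AP-1, 9.56% C/EBP and 7.02% STAT. A match says only that these letters are present in the window, and no match only that they are not.

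The 8 arrays shared 1 slide and 1 scan. Replicates correlated at r = 0.986 to 0.997 across genes, and the share of spots well above background was 62.4% to 67.5% for 7 arrays. It was 72.2% for LPS replicate 2, for which the scanner software also marked 111 uneven spots against 0 to 5 elsewhere. Values below are log2 signals relative to the 75th percentile of the same array, so that 0 is the level of a probe at that percentile. Levels of different probes are not set against each other, since probes differ in how they bind. Of the genes that define macrophages, Csf1r (the M-CSF receptor) and Adgre1 (F4/80) were well above background on all arrays, with mean log2 levels of 9.22 and 7.06 in control macrophages and 5.48 and 2.65 in colony cells. In colony cells all 10 pan-leukocyte markers were lower than in control macrophages (median log2 change -3.09), as were all 10 macrophage markers (median -3.73). Of all genes, 46.7% were called lower in that comparison, and the median change was -0.35. The summed pan-leukocyte level was 1155 to 1186 times the 75th percentile in control macrophages, 1154 to 1188 with IL-4, 1780 to 2024 with LPS and 146 to 147 in colony cells.

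Markers of some other cells also moved with the groups. The summed level of the 9 mesothelial and stromal markers was 0.509 to 0.631 times the 75th percentile in control macrophages, 0.319 to 0.333 with IL-4, 1.23 to 1.38 with LPS and 516 to 537 in colony cells, where all 9 were well above background. There 8 were called higher than in control and 1, Col1a2, lower (-0.90), where 24.7% of all genes were called higher. Msln, Pdgfra and Wt1 passed the filter only through the colony arrays, so they had to differ there. With LPS, 3 of the 9 markers were higher than in control, where these 3 were not well above background. They were Dcn (at least 51.9-fold), Upk3b (at least 9.42-fold) and Lum (at least 2.44-fold), while Col1a1 (-0.98) and Col1a2 (-0.93) were lower. Of 8 endothelial markers, 4 were well above background on both control arrays and 5 on both colony arrays, with sums of 33.4 to 38.2 and 20.7 to 20.8. In colony cells Esam (at least 455-fold) and Tek (at least 4.07-fold) were higher than in control, Vwf, Kdr and Cdh5 lower, and Cdh5 was not well above background. Tek passed the filter only through the colony arrays, so it had to differ there. Of 6 mast cell markers, 5 were higher in colony cells, among them Cpa3 (at least 221-fold) and Fcer1a (at least 41.5-fold). Cpa3, Fcer1a, Ms4a2 and Mcpt4 passed the filter only through the colony arrays, so they had to differ there. The sum of the 6 markers was 5.49 to 5.55 in colony cells against 0.569 to 0.737 in control and 0.258 to 0.559 with LPS. Of 7 dendritic cell markers tested, 2 were higher and 3 lower with LPS, where 28.9% of all genes were called higher and 25.8% lower. In colony cells 2 were higher and 4 lower, where 24.7% of all genes were called higher and 46.7% lower. The part of these cells in the results below was not tested.

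Of the 8 genes, 7 passed the filter, for which the 2 arrays of some group both had to read the probe well above background. Il23a did not pass in any group, and Il12a and Il12b passed only through the LPS arrays. Il27, Ebi3, Il10ra and Il10rb were well above background on all 8 arrays, and Il10 on the 6 macrophage arrays.

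**Figure D1:**
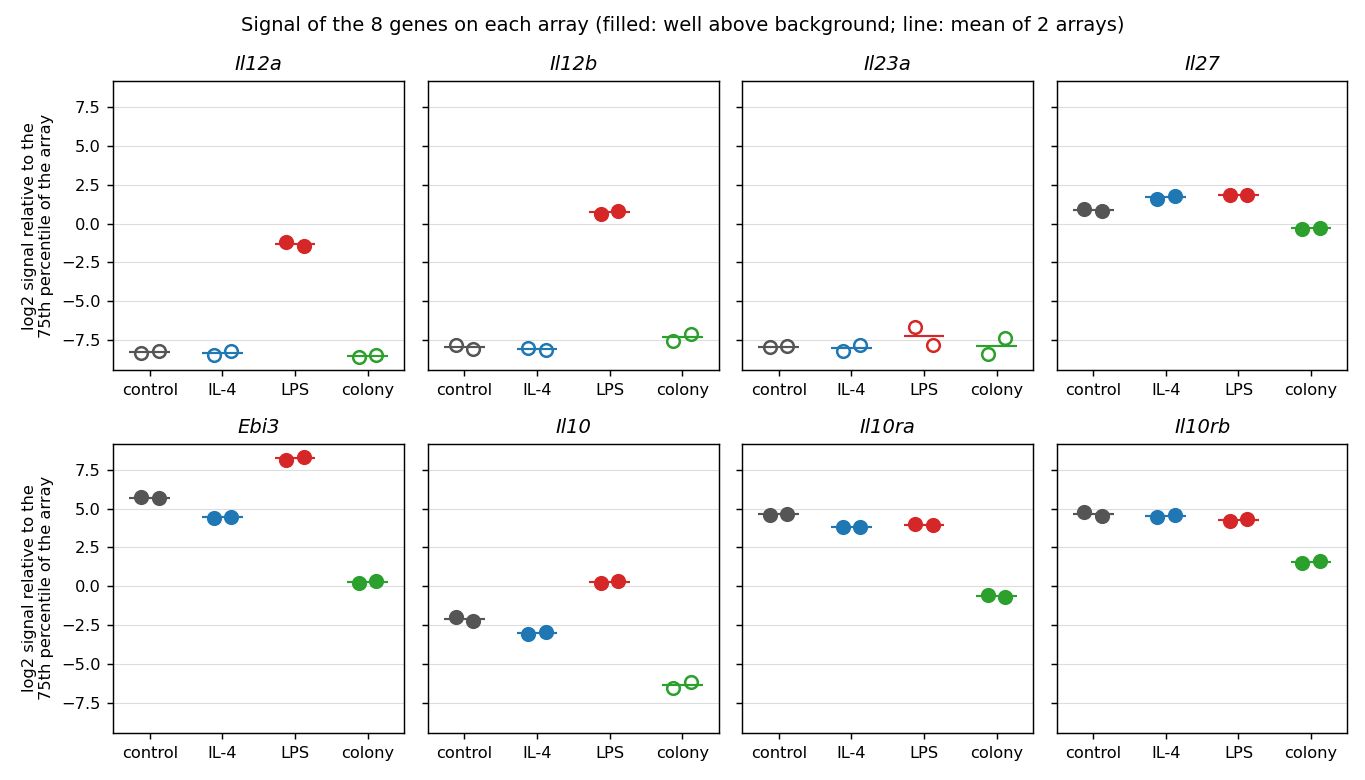
Log2 signal relative to the 75th percentile of the array (vertical axis, log2 units) for each of the 8 genes in control, IL-4 and LPS macrophages and in colony cells. Each point is 1 array, filled where the probe was well above background, and the line is the mean of the 2 arrays. Il12a and Il12b have filled points only in LPS, Il23a in no group, and Ebi3, Il10ra and Il10rb are lowest in colony cells.

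The subunits of IL-12 itself were measurable only after LPS. Il12a was at -1.19 and -1.43 on the LPS arrays (350.3 and 231.9 intensity units). It lay between -8.20 and -8.61 on the 6 other arrays, at 1.55 to 2.39 intensity units, where it was not well above background. Il12b was at 0.59 and 0.83 on the LPS arrays (1206 and 1109 units), where all 10 spots were well above background. On the other arrays Il12b lay between -7.09 and -8.13, with 0 of 10 spots well above background. The LPS values did not overlap those of any other group for either gene. The means of the other 3 groups cannot be ordered, since none is well above background.

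With LPS, Il12a stood at least 26.3-fold and Il12b at least 106.9-fold above control macrophages. These are lower bounds under this background subtraction only. They set the LPS mean against the lowest signal of any probe well above background on each control array, and the limit of a given probe can lie higher. The other folds given as at least were set in the same way, with the dim probe's own signal where that was higher. Since both genes passed the filter only through the LPS arrays, they had to differ there, and no p is given for them. The bounds against IL-4 macrophages were 27.5-fold (Il12a) and 112-fold (Il12b), and against colony cells 32.3-fold and 131-fold. With a background correction that lifts dim probes (normexp), the fitted log2 changes against control were 2.20 for Il12a and 3.89 for Il12b, smaller than these bounds (4.72 and 6.74 on the log2 scale).

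Il23a, which codes for the alpha chain that IL-23 does not share with IL-12, was not well above background on any array. Its log2 signal was -6.68 and -7.82 on the LPS arrays (7.78 and 2.77 intensity units) and lay between -7.40 and -8.40 on the other 6. LPS replicate 2 lay within the range of those 6, and the gene was not tested. No rise of Il23a above background was seen in any group. A rise that stays below background cannot be detected here, so this does not show that the transcript is absent.

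The IL-27 subunits Il27 and Ebi3 were measured in every group and did not move together. Il27, the alpha chain, was at 0.92 and 0.82 in control macrophages, 1.58 and 1.80 with IL-4, 1.85 and 1.82 with LPS, and -0.35 and -0.28 in colony cells. Both stimuli thus stood above control and colony cells below it, with no overlap. LPS raised Il27 by 0.97 ± 0.10 (log2 change ± SE, 1.96-fold, adjusted p = 0.00055) and IL-4 by 0.82 ± 0.10 (1.77-fold, adjusted p = 0.0043). These p-values, and those below, come from limma with Benjamini-Hochberg adjustment over all 26504 genes tested. IL-4 and LPS macrophages did not differ in Il27 beyond the threshold (log2 difference -0.15, 95% interval -0.39 to 0.10, adjusted p = 0.26), and the sign of that difference turned under other scalings (0.064 with median centring).

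Ebi3, the beta chain, was at 5.75 and 5.68 in control macrophages, 4.42 and 4.45 with IL-4, 8.16 and 8.34 with LPS, and 0.22 and 0.32 in colony cells. The 4 groups were fully separate, in the order LPS, control, IL-4, colony cells. LPS raised Ebi3 by 2.53 ± 0.09 (5.79-fold, adjusted p = 1.1e-05), and IL-4 lowered it by 1.28 ± 0.09 (log2 change -1.28, 2.43-fold, adjusted p = 0.00071). IL-4 macrophages therefore stood 14.1-fold below LPS macrophages (log2 difference -3.81 ± 0.09, adjusted p = 2.7e-06).

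Because both genes were read on the same arrays, their ratio does not depend on the constant by which an array is scaled. The log2 ratio of Ebi3 to Il27 signal was 4.83 and 4.87 on the control arrays, 2.84 and 2.65 with IL-4, 6.31 and 6.52 with LPS, and 0.57 and 0.60 in colony cells. The size of the ratio itself has no meaning, since the probes bind differently, but its change does. It rose 2.96-fold with LPS, fell 4.30-fold with IL-4 and fell 19.3-fold in colony cells, with no overlap between any groups. The ratios were chosen after the values had been seen and carry no p, since the smallest two-sided p of an exact permutation test with 2 arrays a group is 0.333.

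Il10 was measured in all macrophage groups. It was at -2.01 and -2.22 on the control arrays (123 and 103 intensity units), -3.08 and -2.96 with IL-4 (73.0 and 69.0 units), and 0.23 and 0.32 with LPS (934 and 777 units). In colony cells it was at -6.55 and -6.19 (8.72 and 11.5 units), where 2 of 10 spots on each array were well above background, against 10 of 10 on every macrophage array. The groups were separate in the order LPS, control, IL-4, colony cells, the same order as for Ebi3.

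LPS raised Il10 by 2.39 ± 0.15 (5.23-fold, adjusted p = 7.9e-05). IL-4 lowered it by 0.91 ± 0.15 (log2 change -0.91, 1.88-fold, adjusted p = 0.012). The IL-4 call was lost without control replicate 1 (-0.80, adjusted p = 0.054), without IL-4 replicate 1 (-0.85, adjusted p = 0.074) and without IL-4 replicate 2 (-0.97, adjusted p = 0.059), with the direction kept each time. Il10 was 9.80-fold lower with IL-4 than with LPS (log2 difference -3.29 ± 0.15, adjusted p = 2.5e-05).

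Both receptor chains were measured in every group, and Il10ra was lower after either stimulus than in control. Il10ra was at 4.62 and 4.65 in control macrophages, 3.81 and 3.79 with IL-4, 3.99 and 3.93 with LPS, and -0.59 and -0.67 in colony cells. LPS lowered it by 0.67 ± 0.07 (log2 change -0.67, 1.59-fold, adjusted p = 0.00051) and IL-4 by 0.83 ± 0.07 (log2 change -0.83, 1.78-fold, adjusted p = 0.0012). IL-4 and LPS macrophages did not differ in Il10ra beyond the threshold (log2 difference -0.16, 95% interval -0.33 to 0.01, adjusted p = 0.094). That difference passed with an intensity trend in the variance (adjusted p = 0.041) and turned to 0.050 with median centring.

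Il10rb was at 4.79 and 4.49 in control macrophages, 4.49 and 4.61 with IL-4, 4.21 and 4.31 with LPS, and 1.49 and 1.61 in colony cells. The IL-4 arrays overlapped the control arrays (log2 difference -0.09, 95% interval -0.40 to 0.21, adjusted p = 0.66). LPS macrophages were lower by 0.38 ± 0.12 (log2 change -0.38, 1.30-fold, adjusted p = 0.042). This call did not hold without control replicate 1 (-0.23, adjusted p = 0.14), without LPS replicate 1 (-0.33, adjusted p = 0.13) or without LPS replicate 2 (-0.43, adjusted p = 0.076), nor with only the 4 arrays compared (adjusted p = 0.12). IL-4 and LPS macrophages did not differ in Il10rb beyond the threshold (log2 difference 0.28, 95% interval -0.02 to 0.58, adjusted p = 0.10), but the difference passed under other scalings (0.44 with quantile normalization, adjusted p = 0.014).

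The ratio of Il10 to Il10ra signal rose 8.33-fold with LPS, from log2 values of -6.62 and -6.87 on the control arrays to -3.77 and -3.62. This log2 change of 3.06 was 2.57 with normexp and 3.29 with quantile normalization. With IL-4 the log2 ratio was -6.89 and -6.75, which overlapped control (change -0.07), and the sign of that change turned under other settings (0.16 with normexp). The log2 ratio of Il10ra to Il10rb was -0.17 and 0.16 in control macrophages, -0.22 and -0.38 with LPS, -0.67 and -0.82 with IL-4, and -2.09 and -2.28 in colony cells. The ligand-binding chain was thus lower relative to the shared chain in IL-4 macrophages and lowest in colony cells, with no overlap between these groups and control.

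**Figure D2:**
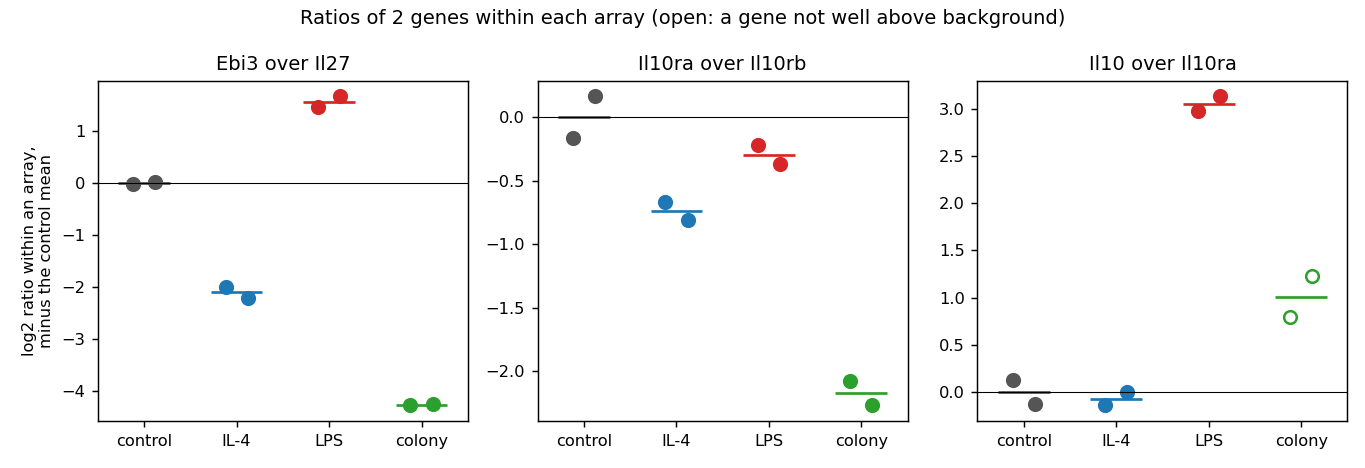
Log2 ratio of 2 genes on the same array, minus the mean of the control arrays (vertical axis, log2 units), for Ebi3 over Il27, Il10ra over Il10rb and Il10 over Il10ra in the 4 groups. Points are arrays, open where 1 of the genes was not well above background, and lines are means of 2 arrays. Ebi3 over Il27 is higher with LPS and lower with IL-4 and in colony cells, and Il10 over Il10ra is higher with LPS.

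In colony cells, all 5 genes that were measured in control macrophages were lower. Ebi3 was 43.6-fold lower (log2 change -5.45 ± 0.09, adjusted p = 5.6e-07) and Il10ra 38.5-fold lower (-5.27 ± 0.07, adjusted p = 4.5e-07). Il10 was at least 18.0-fold lower (adjusted p = 4.5e-06), Il10rb 8.52-fold lower (-3.09 ± 0.12, adjusted p = 7.2e-06) and Il27 2.26-fold lower (-1.18 ± 0.10, adjusted p = 0.00014). The changes spanned a wide range, from that of Il27 to that of Ebi3, its partner in IL-27.

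Over all genes tested the median change in colony cells was -0.35, and relative to it the changes were -5.09 for Ebi3, -4.91 for Il10ra, -2.74 for Il10rb and -0.82 for Il27. The pan-leukocyte markers fell with these genes, each by between 1.60 (Itgb2) and 4.13 (Laptm5) on the log2 scale, and these were the extremes of the 10. The change of Il10rb lay within that range, that of Il27 was smaller than for any of the 10, and those of Ebi3 and Il10ra were larger. Il10 fell by at least 4.17, just beyond the range, but by 2.01 with normexp, within it. The macrophage markers fell by between 2.04 (C1qa) and 4.72 (Lyz2), nearer to Ebi3 and Il10ra but still by less. The part of these markers in the results was not tested. In RNA from a whole culture, fewer cells of a type and less RNA per cell cannot be told apart.

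Colony cells stood below the other macrophage groups too. Against IL-4 macrophages Ebi3 (log2 change -4.16 ± 0.09), Il10ra (-4.43 ± 0.07), Il10rb (-2.997 ± 0.12) and Il27 (-2.002 ± 0.10) were lower, and Il10 was at least 9.62-fold lower. Against LPS macrophages Ebi3 was 252-fold lower (-7.98 ± 0.09, adjusted p = 2.6e-07) and Il10 at least 94.3-fold lower (adjusted p = 8.1e-07). Il27 (-2.15 ± 0.10), Il10ra (-4.59 ± 0.07) and Il10rb (-2.71 ± 0.12) were also lower there. Both sets of differences share the colony arrays with the comparison against control.

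Read against all genes, the calls below are those of the 5 genes that passed the filter through more than 1 group (Il27, Ebi3, Il10, Il10ra and Il10rb). Il12a and Il12b are left out, since the filter itself decided them. LPS against control called 5 of the 5 (3 higher, 2 lower), where 54.7% of all genes were called (28.9% higher, 25.8% lower). IL-4 against control called 4 (1 higher, 3 lower), where 19.0% of all genes were called (9.87% higher, 9.18% lower). The 19.0% fell to 8.18% without IL-4 replicate 1, to 7.56% without IL-4 replicate 2, to 11.6% without control replicate 2 and to 10.1% with median centring. Colony cells against control called 5, all lower, where 71.4% of all genes were called and 46.7% were lower. IL-4 against LPS macrophages called 2, Ebi3 and Il10, both lower with IL-4, where 52.6% of all genes were called and 26.8% were lower. Colony cells against IL-4 macrophages called 5, all lower, where 71.7% of all genes were called and 47.4% were lower. Colony cells against LPS macrophages called 5, all lower, where 76.5% of all genes were called and 49.7% were lower. The split of all calls depended on the scaling: with LPS 52.9% of calls were higher here and 38.5% to 45.4% under the other scalings, and for IL-4 against LPS 49.0% here and 53.6% to 66.1%. In the comparisons with colony cells most genes were called, so a call by itself says little there about the set. The arrays of the compared groups did not overlap for 5 of the 5 genes with LPS against control (75.2% of all genes), 4 with IL-4 (61.4%) and 5 with colony cells (87.5%). The comparisons with control share the control arrays.

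**Figure D3:**
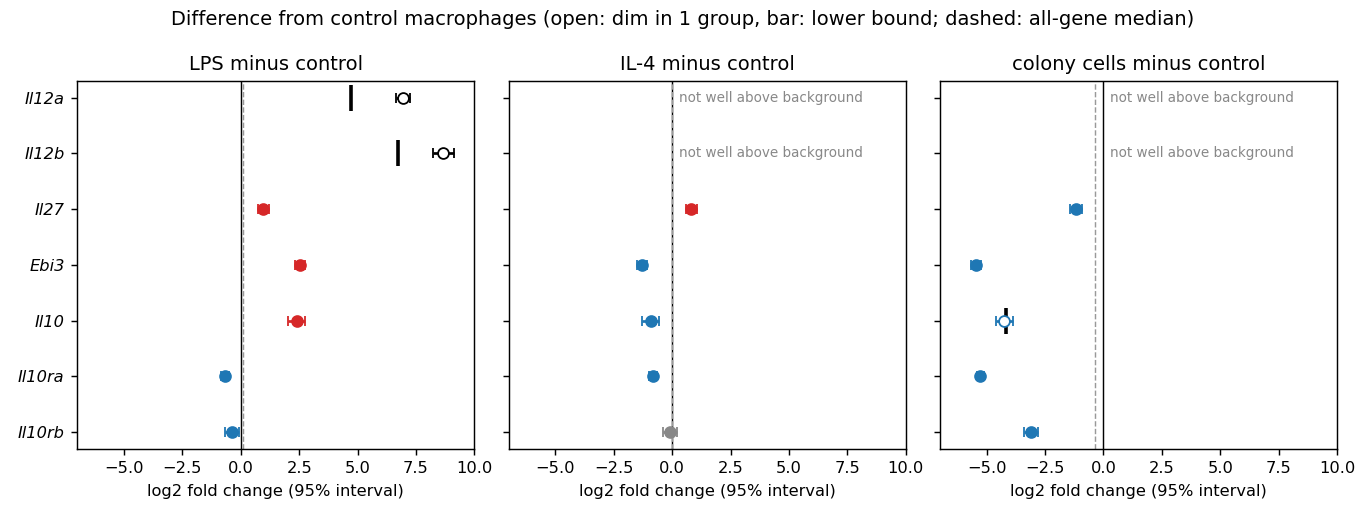
Log2 fold change against control (horizontal axis, with 95% interval from limma) of the 7 genes tested, in LPS macrophages, IL-4 macrophages and colony cells. Red points were called higher, blue lower and grey neither, and black points (Il12a and Il12b) are not read as calls. Open points have 1 group not well above background and a black bar at the lower bound, and the dashed line is the median of all genes. Ebi3, Il10 and Il10ra lie left of 0 in IL-4 macrophages and colony cells, and Ebi3 and Il10 right of 0 with LPS.

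The genes closest in profile were found by the Euclidean distance between log2 values over the 8 arrays, each gene centred on its own mean, among 17448 genes with a symbol. Il12a was closest to Il1f6, an interleukin-1 family cytokine (distance 0.64), then Csf2, which codes for the growth factor GM-CSF (1.05), and Gpr31c (1.07). Il12b was closest to genes for the secreted proteins Lcn2 (0.95), Hp (1.26) and Saa1 (1.36). Il27 was closest to Mrgprb5 (0.24), 4930506A18Rik (0.38) and Sh2b2 (0.39). Ebi3 was closest to Ms4a6c (0.38), followed at a distance by Tnfsf10 (1.18) and Slfn8 (1.32).

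Il10 was closest to Aoah, an enzyme that degrades LPS (0.52), then Slfn8 (0.54) and Epsti1 (0.78), so Slfn8 was among the nearest of both Ebi3 and Il10. Il10ra was closest to Slc43a2 (0.36), Pltp (0.48) and Neurl3 (0.55). Il10rb was closest to the leukocyte adaptor gene Tyrobp (0.16), Tm6sf1 (0.22) and Tmem174 (0.23). These are descriptions over 8 arrays in 4 groups, and the arrays share the groups' large differences. The distances of Il12a and Il12b include 6 arrays, and those of Il10 include 2, on which the gene itself was not well above background and its values have no order. Some near genes were dim too, with group means below the lowest signal read well above background on those arrays. This held for Mrgprb5 in control (-6.25) and colony cells (-7.44), Tnfsf10 in colony cells (-6.61), and Il1f6 and Csf2 outside LPS.

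Among 11 genes for the receptors and signalling proteins of the IL-12 family, LPS against control called 6 higher and 3 lower (median log2 change 0.75, against 0.07 over all genes), where 28.9% of all genes were called higher and 25.8% lower. Il23r, the receptor chain specific for IL-23, rose at least 31.5-fold from below background. Jak2, a kinase bound to these receptors, rose by 3.24 ± 0.08 (adjusted p = 4.5e-06), and Il12rb1, the chain shared by the IL-12 and IL-23 receptors, by 2.69 ± 0.32 (adjusted p = 0.0011). The receptor side of IL-23 was therefore measured with LPS while Il23a was not.

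IL-4 called 4 of these 11 genes higher and 2 lower (median 0.11, against -0.01), where 9.87% of all genes were called higher and 9.18% lower. Il27ra, the receptor chain specific for IL-27, rose by 3.37 ± 0.21 (10.3-fold, adjusted p = 0.00048), and Stat4, the factor that IL-12 activates in lymphocytes, fell by 2.29 ± 0.19 (adjusted p = 0.0014). Il12rb1 rose by 1.57 ± 0.32 (adjusted p = 0.024), a call that was lost without any 1 of the 4 arrays (adjusted p from 0.083 to 0.12). LPS lowered Il27ra by 0.95 ± 0.21 (adjusted p = 0.011), opposite to IL-4, whereas Il27 itself rose with both.

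In colony cells 1 of the 11 genes was called higher and 6 lower (median -0.67, against -0.35), where 24.7% of all genes were called higher and 46.7% lower. Stat4 fell by 2.56 ± 0.19 and the kinase gene Tyk2 by 1.87 ± 0.16. The gene called higher was Il23r, which was well above background on both colony arrays but too close to it for a fold, and its direction turned with normexp (-0.37).

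Of 11 relatives of IL-10 and their receptors, 8 were tested (Ifnl2, Il20ra and Il22ra2 were not). LPS called 4 higher and 0 lower (median 0.43, against 0.07), where 28.9% of all genes were higher and 25.8% lower, and 2 were higher without control replicate 2. The changes were led by the cytokine gene Il19 (2.32 ± 0.15, adjusted p = 0.00010) and by Il20rb, a receptor chain for IL-19 (1.93 ± 0.07, adjusted p = 1.5e-05). Il20 rose by 0.63 ± 0.16 (adjusted p = 0.021), which did not hold with normexp (-0.025) or without control replicate 2 (adjusted p = 0.092) or LPS replicate 2 (adjusted p = 0.083). IL-4 called 3, where 19.0% of all genes were called. They were Ifnl3 (0.55 ± 0.11, adjusted p = 0.024) and Il20rb (0.51 ± 0.07, adjusted p = 0.0082), both higher, and Ifnlr1, lower, a receptor chain for lambda interferons that pairs with Il10rb (at least 1.51-fold lower, adjusted p = 0.017). Ifnlr1 was well above background on 1 of 2 control arrays, and its call was lost without either IL-4 array (adjusted p = 0.082 and 0.096). That of Ifnl3 was lost without control replicate 2 (adjusted p = 0.090) and without IL-4 replicate 1 (0.12) or 2 (0.10), and that of Il20rb without IL-4 replicate 2 (adjusted p = 0.062), which left 0 of the 3 calls.

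In colony cells Ifnlr1 was the 1 relative called higher (4.12 ± 0.46, adjusted p = 0.00046) and 4 were lower, among them Il20 (-1.08 ± 0.16) and Il19 (-0.93 ± 0.15), where 24.7% of all genes were higher and 46.7% lower. Ifnlr1 was well above background on only 1 of 2 control arrays, so the size of its rise is uncertain. Over the alternatives the rise ranged from 1.59 to 4.83, with the call kept in each. Its direction was opposite to that of Il10rb, the chain it pairs with, which fell by 3.09 there.

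Of 12 genes known to be induced by IL-10, 11 were tested (Cd163 was not). LPS called 9 higher and 1 lower (median 1.22, against 0.07), beside 28.9% and 25.8% of all genes. Il1rn, the interleukin-1 receptor antagonist, rose by 7.23 ± 0.13, Socs3, a feedback inhibitor of cytokine signalling, by 6.81 ± 0.08, and Fcgr1, an Fc receptor, by 2.33 ± 0.07. IL-4 called 2 higher and 4 lower (median -0.14, against -0.01), beside 9.87% and 9.18% of all genes, with Nfil3, a transcription factor, up by 2.47 ± 0.06, and Fcgr1 (-1.65 ± 0.07) and Socs3 (-0.86 ± 0.08) down. Il10 itself changed by 2.39 with LPS and by -0.91 with IL-4. In colony cells 4 were called higher and 4 lower (median -0.052, against -0.35), beside 24.7% and 46.7% of all genes. Socs3 rose by 3.31 ± 0.08 while Il10 was not well above background, and Fcgr1 (-3.06 ± 0.07) and Zfp36 (-3.002 ± 0.11) fell. These genes also respond to signals other than IL-10.

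Of 16 regulators of IL-12 family and IL-10 transcription, LPS called 10 higher and 4 lower (median 0.58, against 0.07), beside 28.9% and 25.8% of all genes, so the share lower was near that of all genes. The largest changes were those of Nfkbiz, a nuclear cofactor of NF-kB (2.17 ± 0.16), Dusp1, a phosphatase of MAP kinases (1.84 ± 0.14), and Cebpb, a transcription factor (1.73 ± 0.13). IL-4 called 4 higher and 5 lower (median -0.04, against -0.01), beside 9.87% and 9.18% of all genes. Without IL-4 replicate 1 these fell to 2 higher and 2 lower, where 8.18% of all genes were called. Bhlhe40, a known repressor of Il10, rose by 3.31 ± 0.11, and Maf, a known activator of Il10, fell by 1.36 ± 0.08, as did Nfkbiz (-2.15 ± 0.16). Only the 3 largest called changes were named for LPS, so the absence of Bhlhe40 and Maf there does not say whether they changed. Whether any regulator had a part in the changes of Il10 was not tested.

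In colony cells 4 regulators were called higher and 10 lower (median -1.14, against -0.35), beside 24.7% and 46.7% of all genes, so the share higher was near that of all genes. Bhlhe40 rose by 3.53 ± 0.11, while Prdm1, a transcription factor (-4.85 ± 0.07), and Irf5, an activator of Il12b (-3.63 ± 0.09), fell. Maf fell there too, by 1.95 ± 0.08 (adjusted p = 1.1e-05). The part of these regulators in the results for Il10 and Il12b was not tested. Both comparisons share the control arrays.

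Of 8 genes by which lymphocytes respond to these cytokines, 6 were tested (Ifng and Il21 were not), and each comparison with control called 1 of them. With LPS, where 54.7% of all genes were called, this was Il17a, a T cell cytokine (at least 1.34-fold higher), which passed the filter only through the LPS arrays and turned with normexp (-0.17). With IL-4, where 19.0% of all genes were called, it was Foxp3, the regulatory T cell factor (-0.55 ± 0.13, adjusted p = 0.041), which was lost without any 1 of the 4 arrays (adjusted p from 0.089 to 0.17), and without IL-4 replicate 1 the list had 2 other calls, both higher. Colony cells, where 71.4% of all genes were called, had the granule protease gene Gzmb at least 23.9-fold higher than control, and it passed the filter only through the colony arrays. The colony count was 2 with the authors' deposited values, which hold 3 of the 6 genes, 2 without colony replicate 2, and 6 (2 higher, 4 lower) with normexp.

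Of 8 T and NK cell markers, 4 were tested, and Cd3g, Cd8a, Ncr1 and Klrb1c were not well above background on both arrays of any group. Cd4, Cd3e and Lck were well above background on all control and colony arrays. The summed level was 13.7 to 14.1 in control macrophages, 11.1 to 12.8 with IL-4, 13.7 to 14.2 with LPS and 6.72 to 6.78 in colony cells. Colony cells had Cd4 (-1.16) and Cd3e (-0.97) lower than control and Lck higher (1.41, adjusted p = 0.0012). Cd2 was not well above background in either group, so its means there cannot be ordered. LPS called Lck higher (0.63, adjusted p = 0.039). Whether lymphocytes had a part in these values was not tested.

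**Figure D4:**
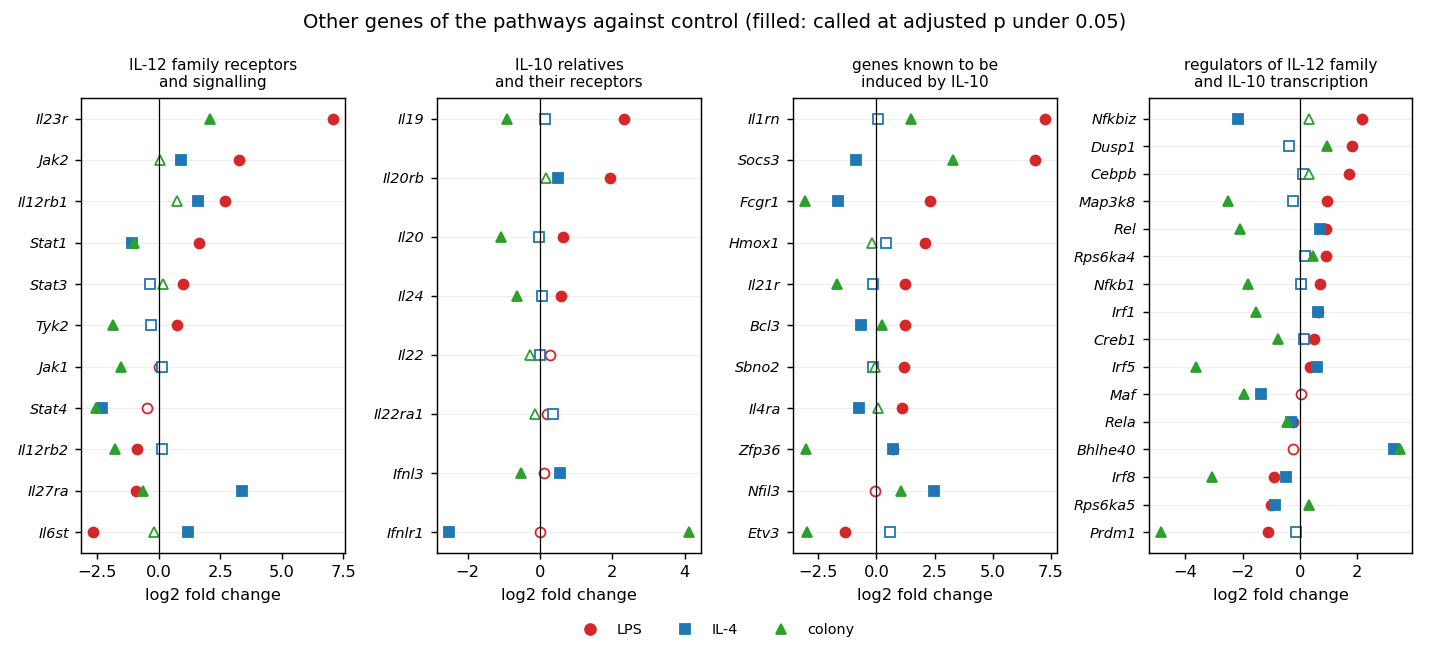
Log2 fold change against control (horizontal axis) for the tested genes of 4 lists: receptors and signalling of the IL-12 family, IL-10 relatives and their receptors, genes known to be induced by IL-10, and regulators of transcription. Circles are LPS macrophages, squares IL-4 macrophages and triangles colony cells, filled where called at an adjusted p under 0.05, and a gene not well above background in both groups has no symbol. Values of Il23r are fitted against a control below background and are no folds. Il1rn, Socs3 and Il23r lie farthest right with LPS.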

How the data were processed

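RNA of 8 samples was measured on 1-colour arrays. Per the file headers, the deposited spot signals are intensity values made by Agilent Feature Extraction 10.7.3.1, background-subtracted and not scaled between arrays, with other columns of 0 or 1 that flag a spot as bright enough over its background, saturated, uneven or outlying. The authors' deposited value table is on the log2 scale, for 34119 probes, and matched the log2 scanner signals apart from 1 constant per array (r of at least 0.99996, column medians 2.53 to 2.96). Its constant and its choice of probes are not given in the sources used here, and it holds no row for Il23a. The submitters' processing notes name Partek 6.4 and RMA and give neither a role.

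Here, uneven and outlying spots were left out, log2 signals were centred on the 75th percentile of their array, and spots of a probe were averaged. A probe was well above background on an array where this held for 0.5 or more of its spots. The filter on dim probes left 39411 probes, and the probe with the highest mean stood for each of 26504 genes. Names were updated through reference transcripts (26756 probes), symbols (3824) and synonyms (639), and 24462 kept the file's name. Groups were compared in limma 3.58.1 (R 4.3.3) with 1 linear model over all arrays, 4 residual and 1.57 prior degrees of freedom, and Benjamini-Hochberg adjustment over all genes with a threshold of 0.05. The fit was tested on simulated data. The number of arrays limits the precision.

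The genes and lists were chosen with earlier results of these data known. From each list, up to 3 called genes with the largest change per comparison with control were named, and for each gene of the set that passed the filter the 3 nearest profiles. Il27ra with LPS and Maf in colony cells were named after their values had been seen. Alternatives covered background correction, scaling, filter, probe choice, the authors' values, the variance model, a replicate block and leaving out each array. The ratios and the alternatives of list genes were added after the data were seen.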

Additional observations from a re-analysis of the deposited data

How the results depend on the processing

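Over Il27, Ebi3, Il10, Il10ra and Il10rb, 425 of 444 values under an alternative kept their direction and their side of the threshold, 9 lost the call, 5 gained it and 5 turned sign. The values that turned were those of Il10rb for IL-4 against control without control replicate 1 (0.052, range over left-out arrays -0.24 to 0.052), Il27 for IL-4 against LPS with median centring (0.064) and with the authors' deposited values (0.074), and Il10ra in the same comparison with median centring (0.050) and with the deposited values (0.06). The cause was not tested. Among list genes, 36 of 539 values lost the call and 3 turned, all with normexp: Il20 (-0.025) and Il17a (-0.17) with LPS and Il23r in colony cells (-0.37). The log2 ratio of Il10 to Il10ra with IL-4 turned with normexp (0.16), with quantile normalization (0.077) and without control replicate 1 (0.051, range over left-out arrays -0.20 to 0.051). With a filter on probes well above background on all 8 arrays, which leaves out Il12a, Il12b and Il10, the calls of the set (7, 4 and 7 with Il12a and Il12b counted) numbered 4 for LPS against control, 1 for IL-4 against LPS and 4 for colony cells against LPS, because fewer genes were tested. Genes called for IL-4 against control numbered 5049, and 2667 with median centring, 2566 in the deposited table and 3281 with only the 4 arrays compared. Leaving out 1 array each gave 2004 to 3710 (2169 and 2004 without the first and the second IL-4 array, 3086 without control replicate 2). Such ranges were 12617 to 14416 for LPS against control, 16464 to 17620 for colony cells against control, 10529 to 13751 for IL-4 against LPS, 16302 to 16803 for colony cells against IL-4 and 17919 to 19755 for colony cells against LPS. For the set, here with Il12a and Il12b counted, they were 6 to 7, 3 to 4, 5 to 6, 4 to 4, 5 to 6 and 7 to 7, with IL-4 against control second. Replicate differences correlated little between groups (-0.16 to 0.05). This cannot show whether samples with the same replicate number share an animal or a culture, on which the labels are silent. With the replicate block, Il10rb for LPS against control lost its call (adjusted p = 0.072), 3861 genes were called for IL-4 against control and 13714 for LPS against control. The median change of all genes with LPS moved from 0.07 to -0.15 with normexp and -0.13 in the deposited table. Normexp also brought the change of Il10 in colony cells to -2.01, below its bound. Signal near background limits Il12a, Il12b and Il23a outside LPS and Il10 in colony cells.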
